A study of Mus musculus with 4 samples.

Results

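Cells make cholesterol from acetyl-CoA through the mevalonate pathway, take up more from outside, pass the excess out through membrane transporters and store part of it as esters. The transcription factor SREBP2 switches the synthesis genes on when sterol in the endoplasmic reticulum is low, and the nuclear receptors LXRα and LXRβ switch the efflux genes on when oxysterols are plentiful. Dividing T cells need sterol for new membrane. The genes described here are 31 members of this network, chosen by name: 19 enzymes of synthesis in pathway order, 4 regulators of SREBP, 3 genes of uptake and transport, 3 of efflux and 2 of storage and oxysterol production. They were found by symbol among 23356 gene rows. The list holds 32 names, because Sc4mol is the older symbol of Msmo1, and the row carries the older one.

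RNA came from T helper 17 (Th17) cells, the CD4 T cells that make IL-17, of C57BL/6 mice aged 6 to 8 weeks, grown in vitro for 48 h. Of 4 libraries, 2 were labelled as vehicle (no treatment agent given) and 2 as given recombinant murine SAA1 (serum amyloid A1, made by the liver in the acute phase and by gut epithelium) at a labelled dose of 2 ng/ml. The comparison asks which transcripts differ when SAA1 is in the culture, and the labels do not say whether the libraries of a group came from separate animals or cultures. Each group has a single value per gene in FPKM (sequenced fragments per kilobase of transcript, scaled by the number mapped), so no spread between libraries can be given and depth is unknown. The error of each log2 ratio (SAA1 over vehicle) is the standard error implied by the authors' test statistic, and intervals are 95% normal intervals from it.

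Markers of the labelled cell type were present: Cd4 was at 162 FPKM with vehicle and 131 with SAA1, and Cd3e, a chain of the T cell receptor complex, at 39.1 and 28.2 (adjusted p 0.039 by Cuffdiff). Thy1, a surface marker of T cells, was at 66.0 and 96.8 FPKM (adjusted p 0.0019 by Cuffdiff). Of 9 tested T cell identity genes, Thy1 was thus called higher, Cd3e lower and 7 not at all. Il17a, the defining cytokine, was at 56.0 and 568 FPKM. The 6 B cell markers summed to 2.11 and 1.69 FPKM and the 10 myeloid and dendritic markers to 0.918 and 0.719, with C1qa and C1qb listed at 0 in both groups. The highest single myeloid markers were Fcgr3 with vehicle (0.190 FPKM) and Cd14 with SAA1 (0.229). Among 6 markers of CD8 and natural killer cells, Cd8b1 was highest, at 4.32 and 4.24 FPKM. In bulk RNA, fewer cells of a type and less RNA per cell cannot be told apart.

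SREBP and LXR act through short promoter elements, and 3 stretches from the RefSeq promoter table (GRCm38.p6) are printed because they hold letters that match such elements in genes described below, each 80 bases long, 5′ to 3′ on the gene's own strand and upstream of the start site. Capitals mark the SREBP element TCACNCCAC in Hmgcs1 (chr13:119690181-119690260, plus strand), the E-box CACGTG in Insig1 (chr5:28071272-28071351, plus strand) and, on the opposite strand, a direct repeat of the LXR type (GGTNA, 5 bases of any kind, GGTNA) in Abca1 (chr4:53159916-53159995, minus strand).
Hmgcs1: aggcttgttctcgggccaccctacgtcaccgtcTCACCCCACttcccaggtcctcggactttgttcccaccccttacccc
Insig1: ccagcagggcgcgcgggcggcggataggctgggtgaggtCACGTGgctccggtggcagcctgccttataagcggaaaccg
Abca1: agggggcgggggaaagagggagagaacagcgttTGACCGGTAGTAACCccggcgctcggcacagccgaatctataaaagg

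The table held promoters of 300 bases, from 250 before the start site to 50 after it, for 25 of the 31 genes. Abcg1, Fdps, Fdft1, Sqle, Stard4 and Npc1 were not searched. Searched on both strands, the SREBP element was in 1 of the 25 (4%, Hmgcs1). It was in 1.24% of all 32851 promoters and 1.36% of the 8428 tested genes in the table. The LXR-type repeat was also in 1 (4%, Abca1), against 0.718% of all promoters and 0.605% of those tested genes. The E-box, to which SREBP and other factors can bind, was in 6 of the 25 (24.0%), against 7.15% of all promoters and 12.4% of the 8428 tested genes in the table. The CCAAT box, the site of NF-Y, a factor that acts beside SREBP at many sterol genes, was in 20 (80.0%), among them Mvk, Idi1, Cyp51, Lss and Nsdhl. It was in 37.4% of all promoters and 43.5% of the tested genes. Members were counted by gene, with a match in any of a gene's listed promoters, and matches of different motifs did not overlap in the stretches shown. These are matches of letters, not binding sites.

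The sterol synthesis genes were well expressed in both groups. Of the 30 tested members, 24 lay above the median of all tested genes with vehicle (14.1 FPKM), and 9 exceeded 50 FPKM in both groups. Cyp51, the lanosterol demethylase, was the most abundant, at 155 and 140 FPKM (percentiles 94.9 and 94.2 of the tested genes). Hmgcs1, the synthase that makes HMG-CoA, followed with 137 and 113 FPKM. The lowest levels among tested members were those of the transporters Abcg1 and Abca1 and of the isomerase Idi1, between 4.78 and 7.42 FPKM in either group. The order of the 30 genes was much the same in both groups, with no gene moving by more than 6 places. No error is available for a level in 1 group, so neighbours in that order cannot be told apart.

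**Figure D1:**
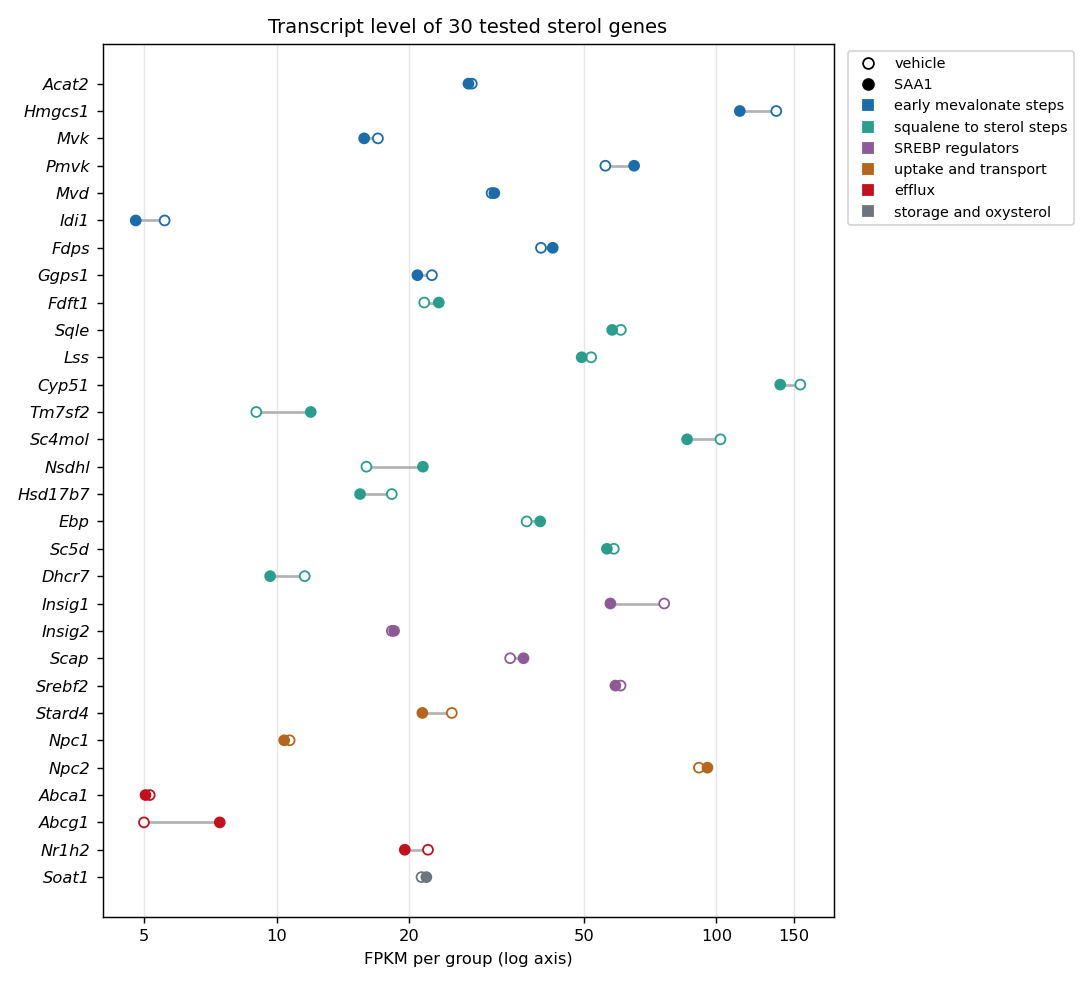
Transcript level of the 30 tested sterol genes, in pathway order from top to bottom. The horizontal axis is FPKM on a log scale, open points are the vehicle group and filled points the SAA1 group, each a single value from 2 libraries, and colours give the role. Cyp51 and Hmgcs1 lie furthest right and Idi1, Abca1 and Abcg1 furthest left, and the pairs of points lie close together for most genes.

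With SAA1, 1 of the 30 tested members passed the test, and it belongs to efflux. Abcg1, a transporter that passes cholesterol to HDL particles, was at 4.99 FPKM with vehicle and 7.42 with SAA1, and so was higher by 1.49-fold. Its log2 ratio was 0.57 ± 0.22 (SE), with an interval from 0.14 to 1.00 and an adjusted p of 0.0047 by Cuffdiff in the authors' deposited table. The gene lies on chromosome 17 from 31057694 to 31117981 (mm10), an interval that spans its exons and introns and holds no other gene row. The call rests on the deposited p: taking the authors' statistic as a normal score (two-sided) instead gave an adjusted p of 0.22 for Abcg1.

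Across the network, Cuffdiff called 1 of 30 tested genes (3.33%) higher and 0 lower at an adjusted p under 0.05. Over all 11481 tested genes, 6.52% were called, of which the higher made up 3.97% of the tested genes and the lower 2.55%. With no adjustment, 3 members (Abcg1, Insig1 and Nsdhl) had a p under 0.05, beside 15.8% of all tested genes. The same 3 had an adjusted p under 0.1, beside 8.81% of all. The median log2 ratio of the 30 genes was -0.04, beside -0.02 over all tested genes, and 18 of the 30 (60.0%) were below 0, beside 53.2% of all. The median absolute log2 ratio was 0.11 among the members and 0.13 among the 7754 tested genes whose mean level lay within the members' range, of which 5.03% were called. The members' share of calls was below the background, which is no result about the set.

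The size of change that the test could call at these levels was limited. Among the 390 called genes in the members' range of mean level (5.09 to 147 FPKM), the smallest absolute log2 ratio was 0.42. The median standard error of the members was 0.21. For 27 of the 30 genes the interval lay within a log2 ratio of 1 in both directions, and for 11 within 0.5. A p that misses the threshold does not show that a gene kept its level.

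**Figure D2:**
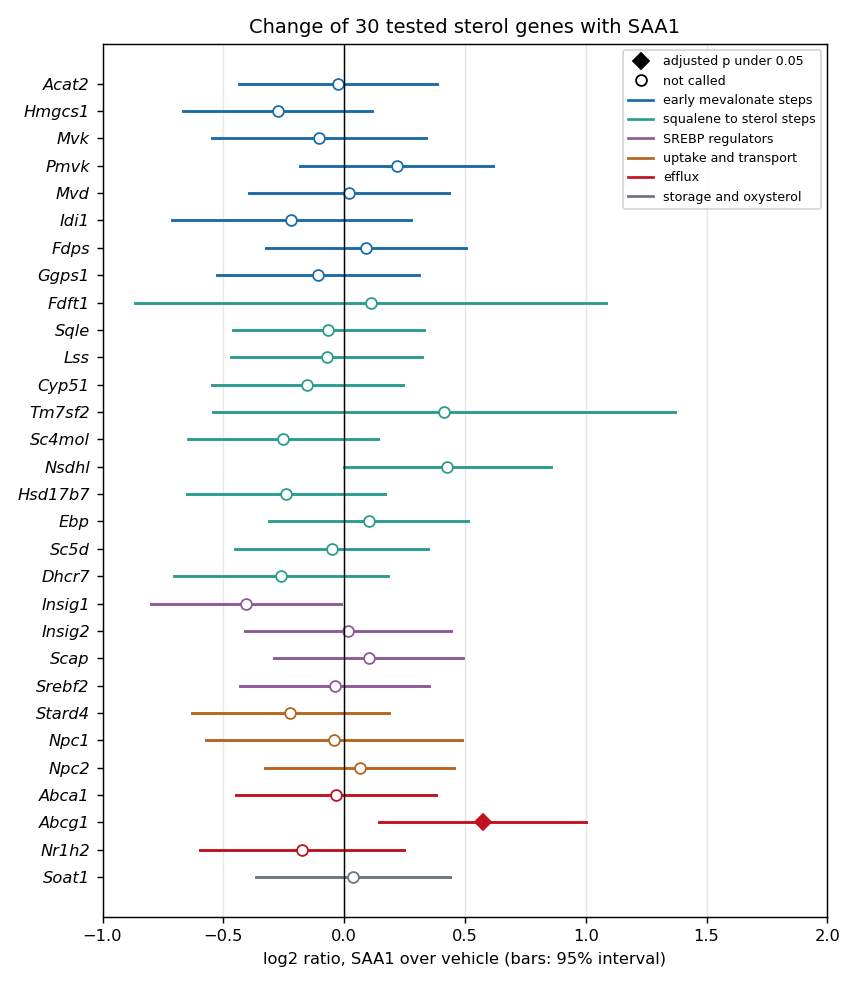
Log2 ratio of SAA1 over vehicle for the 30 tested sterol genes, in the same order as the pathway. Points are the ratio, bars the 95% interval implied by the authors' test statistic, and the filled diamond marks an adjusted p under 0.05. Abcg1 is the only diamond, at 0.57, the interval of Insig1 ends just below 0, and Fdft1 and Tm7sf2 have the widest bars.

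The early mevalonate steps, from acetyl-CoA to farnesyl and geranylgeranyl diphosphate, held no call. Of 8 tested enzymes, Cuffdiff called 0, beside 6.52% of all tested genes, and 0 had an unadjusted p under 0.05, beside 15.8%. With so few genes, a count of 0 is no result about these steps. Their log2 ratios ran from -0.28 to 0.22, with a median of -0.06, 5 below 0 and 3 above. Hmgcs1, the carrier of the SREBP element printed above, was at 137 FPKM with vehicle and 113 with SAA1, a log2 ratio of -0.28 ± 0.20 (adjusted p 0.32 by Cuffdiff).

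Acat2, the thiolase that joins acetyl groups at the entry to the pathway, was at 27.8 and 27.3 FPKM. The kinases Mvk and Pmvk, which phosphorylate mevalonate in turn, had levels of 17.0 and 15.8 FPKM (Mvk) and of 55.9 and 65.0 FPKM (Pmvk). The decarboxylase Mvd was at 30.8 and 31.3 FPKM. These levels stayed within 1.16-fold of each other between groups, and the kinases differed in opposite directions.

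Idi1, which isomerises isopentenyl diphosphate, was at 5.56 and 4.78 FPKM, the lowest of the enzymes. Fdps, the farnesyl diphosphate synthase, was at 39.9 and 42.5 FPKM. Ggps1, which leads to the lipid used for prenylation rather than to sterol, was at 22.5 and 20.9 FPKM.

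The steps from squalene to cholesterol also held no call, with 7 of 11 ratios below 0 and 4 above. Cuffdiff called 0 of the 11, beside 6.52% of all tested genes, and 1, Nsdhl, had an unadjusted p under 0.05, beside 15.8%. Nsdhl, a dehydrogenase that acts when methyl groups are removed from the sterol nucleus, was at 16.0 FPKM with vehicle and 21.5 with SAA1 (1.34-fold). Its log2 ratio was 0.43 ± 0.22, with an interval that reached from just under 0 to 0.85 and an adjusted p of 0.070 by Cuffdiff. It lies on chromosome X from 72918521 to 72958528.

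The enzymes that work beside Nsdhl in that demethylation had ratios on the other side of 0. Sc4mol, the methyl oxidase, was at 102 and 85.8 FPKM, a log2 ratio of -0.25 ± 0.20. Hsd17b7, the ketoreductase, was at 18.3 and 15.5 FPKM, a log2 ratio of -0.24 ± 0.21. Both missed the test (adjusted p 0.40 and 0.45 by Cuffdiff), and the difference between these genes and Nsdhl was not tested.

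Squalene is made by Fdft1 (21.7 and 23.4 FPKM), oxidised by Sqle (60.6 and 57.9) and closed into lanosterol by Lss (51.9 and 49.4). Cyp51, which then removes a methyl group, was at 155 and 140 FPKM with a log2 ratio of -0.15 ± 0.20. Tm7sf2, a sterol reductase, was at 8.99 and 11.95 FPKM, 1.33-fold apart with an adjusted p of 0.67 by Cuffdiff. Fdft1 and Tm7sf2 had the largest standard errors of all members, 0.50 and 0.49. Each shares its locus with another expressed row, Ctsb for Fdft1 and Vps51 for Tm7sf2, so that reads could belong to either. Lss and Srebf2 also share a locus, with 4930483K19Rik and with the microRNA row Mir33, which is listed at 0.

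Of the last enzymes, the isomerase Ebp was at 37.0 and 39.8 FPKM and the desaturase Sc5d at 58.4 and 56.4. Dhcr7, the reductase of the final step in one branch, was at 11.6 and 9.66 FPKM, a log2 ratio of -0.26 ± 0.23. Summed over the 19 synthesis enzymes, the level was 878 FPKM with vehicle and 832 with SAA1, a ratio of 0.947. The same ratio was 0.986 over the 7754 tested genes in the members' range of mean level. The most abundant genes weigh most in such a sum, and no error can be given for it.

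Among the regulators of SREBP, Insig1 came closest to the threshold of the 29 tested members that missed it. Insig1 retains the SREBP escort protein in the endoplasmic reticulum when sterol is high and is itself a target of SREBP. It was at 76.1 FPKM with vehicle and 57.4 with SAA1, which is 0.754 of the vehicle level. The log2 ratio was -0.41 ± 0.20, with an interval from -0.80 to -0.01, an unadjusted p of 0.0039 and an adjusted p of 0.056 by Cuffdiff in the authors' deposited table. It lies on chromosome 5 from 28071412 to 28078662, just downstream of the stretch printed above.

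Its paralog Insig2, which retains the same escort protein, was at 18.3 and 18.5 FPKM. Insig1 was thus 4.17 times as abundant as Insig2 with vehicle and 3.11 times with SAA1. The log2 ratios of the pair differed by -0.42 with a combined standard error of 0.30, a pair set side by side after its values were seen and not tested. Scap, the escort protein, was at 34.0 and 36.4 FPKM, and Srebf2, which encodes SREBP2 itself, at 60.6 and 58.9. In this list of 4, Cuffdiff called 0, beside 6.52% of all tested genes, and 1 had an unadjusted p under 0.05, beside 15.8%.

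The genes of uptake and transport held no call. Npc2, which binds cholesterol in the lysosome, was the most abundant, at 91.3 and 95.4 FPKM. Npc1, the membrane protein that receives it, was at 10.7 and 10.4 FPKM, in a locus that overlaps the expressed row 3110002H16Rik. Stard4, a soluble carrier of cholesterol between membranes, was at 25.0 and 21.4 FPKM, a log2 ratio of -0.22 ± 0.21. Of these 3, 0 were called by Cuffdiff in the authors' deposited table, beside 6.52% of all tested genes. Likewise 0 had an unadjusted p under 0.05, beside 15.8% of all.

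Within efflux, Abcg1 stood beside a partner that was not called. Abca1, which loads lipid-poor apolipoprotein and whose promoter stretch is printed above, was at 5.14 and 5.03 FPKM, a log2 ratio of -0.03 ± 0.21 with an interval from -0.45 to 0.38. Both transporters are textbook targets of LXR. With vehicle their levels were nearly equal, with a ratio of Abcg1 to Abca1 of 0.970, and with SAA1 the ratio was 1.48. The log2 ratios differed by 0.60 with a combined standard error of 0.30, for a pair chosen after its values were seen and with the genes taken as independent, and no test is given. Nr1h2, which encodes LXRβ, was at 22.1 and 19.6 FPKM, and Nr1h3, which encodes LXRα, at 0.184 and 0.219, which the authors did not test.

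Storage and oxysterol genes separated into an expressed and a nearly silent gene. Soat1, which esterifies cholesterol for storage, was at 21.3 and 21.9 FPKM, a log2 ratio of 0.04 ± 0.21. Ch25h, which hydroxylates cholesterol to an oxysterol, was listed at 0 with vehicle and at 0.0788 FPKM with SAA1, and the authors did not test it. Some other oxysterol enzymes were as low. Cyp27a1 was at 0.0293 FPKM with vehicle and listed at 0 with SAA1. Cyp7b1 was listed at 0 and at 0.0130 FPKM, and Cyp46a1 was listed at 0 in both groups. Of the further sterol enzymes, Hsd3b7 (1.06 and 0.952 FPKM) and Sult2b1 (2.28 and 2.56) were higher, and both were tested.

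**Figure D3:**
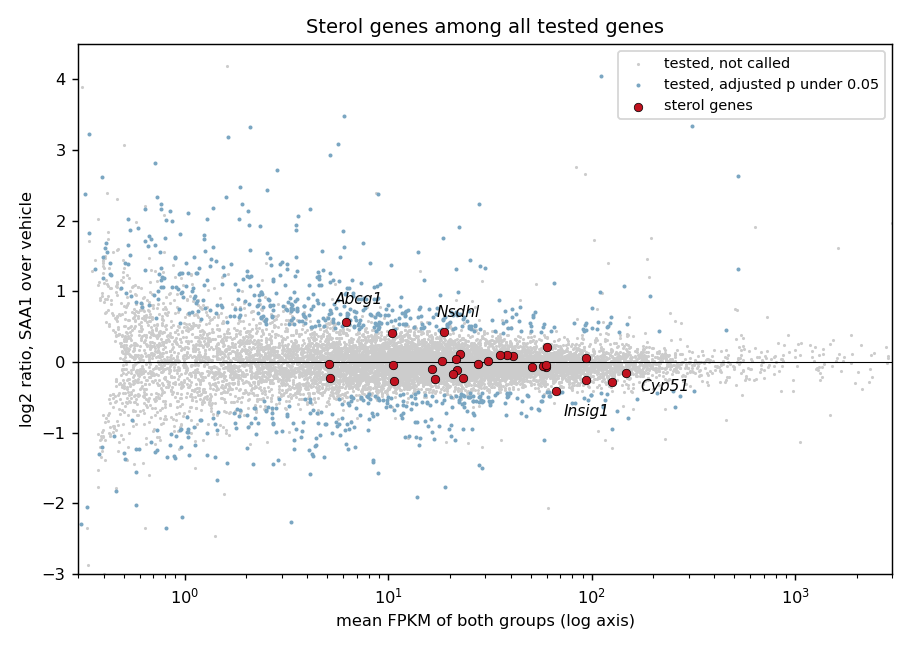
Log2 ratio of SAA1 over vehicle against the mean FPKM of both groups (log axis) for tested genes with FPKM above 0 in both groups. Grey points are tested genes that were not called, blue points those with an adjusted p under 0.05 and red points the 30 sterol genes; 48 of 11403 genes lie outside the axes. The red points lie in the grey band around 0 apart from Abcg1, and Nsdhl, Tm7sf2 (not labelled) and Insig1 lie furthest from 0 within it.

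The remaining genes of the pathway gave a like picture. From 6 further lists, 62 of 70 genes were tested. Cuffdiff called 2 higher and 0 lower (3.23%, beside 6.52% of all tested genes), and 6 had an unadjusted p under 0.05, beside 15.8% of all. The median log2 ratio was -0.03, beside -0.02 over all, and 37 of the 62 ratios (59.7%) were below 0, beside 53.2%.

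One of the calls was another gene of esterification. Soat2, the second cholesterol acyltransferase, rose by 1.68-fold, from 2.33 FPKM with vehicle to 3.93 with SAA1 (log2 ratio 0.75 ± 0.31, adjusted p 0.017 by Cuffdiff). Its level with SAA1 was below that of Soat1 in either group. Soat2 was the only call among 18 tested genes of sterol transport (5.56%, beside 6.52% of all tested genes). The median log2 ratio of those 18 genes was -0.00077.

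The other call was a source of acetyl-CoA. Acss2, which makes acetyl-CoA from acetate and is a known SREBP target, rose from 5.80 to 8.37 FPKM, with a log2 ratio of 0.53 ± 0.24 (adjusted p 0.022 by Cuffdiff). It shares its locus with the row 4930471I20Rik, which stayed at or below 0.210 FPKM. Of the 11 tested genes of fatty acid synthesis 1 was called (9.09%, beside 6.52% of all tested genes). Acly, which makes acetyl-CoA from citrate, was at 174 and 171 FPKM. Neither call held with the normal p of the deposited statistic (adjusted p 0.31 for Soat2 and 0.42 for Acss2).

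None of the tested receptors and sensors of sterols was called, in lists too short for that to be a result. Gpr183, the receptor through which oxysterols guide lymphocyte migration, was at 33.9 FPKM with vehicle and 22.1 with SAA1, a log2 ratio of -0.62 ± 0.30 (adjusted p 0.061 by Cuffdiff). Its locus overlaps Ubac2 and Gpr18. Of 4 tested genes in the list of LXR targets and the oxysterol receptor, 0 were called, beside 6.52% of all tested genes. By Cuffdiff, 1 of them, Gpr183, had an unadjusted p under 0.05, beside 15.8% of all. Lpcat3 and Abca7 of this list had standard errors of 0.39 and 1.62, in loci that overlap other rows.

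In the list of SREBP processing and sterol sensing, 0 of 10 tested genes were called by Cuffdiff, beside 6.52% of all. An unadjusted p under 0.05 was found for 1, beside 15.8% of all tested genes. That gene was Pgrmc1, a haem-binding membrane protein, at 76.5 and 62.1 FPKM with a log2 ratio of -0.30 ± 0.20 (adjusted p 0.26 by Cuffdiff). Of the ratios in this list, 7 were below 0 (70.0%) and 3 above, beside 53.2% below 0 over all tested genes.

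Among 5 tested further sterol enzymes, 0 were called and 0 had an unadjusted p under 0.05 by Cuffdiff, and Sult2b1, a sterol sulfotransferase, had the largest absolute ratio, at 2.28 and 2.56 FPKM. The isoprenoid branch attaches farnesyl and geranylgeranyl groups to proteins and builds dolichol and ubiquinone. This branch held 0 calls among 14 tested genes and 0 with an unadjusted p under 0.05 by Cuffdiff. For both lists, the shares over all tested genes were 6.52% and 15.8%. The largest absolute ratio of the isoprenoid branch was that of Rabggta, a subunit of the Rab prenyltransferase, at 11.6 and 14.2 FPKM (log2 ratio 0.29 ± 0.22).

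**Figure D4:**
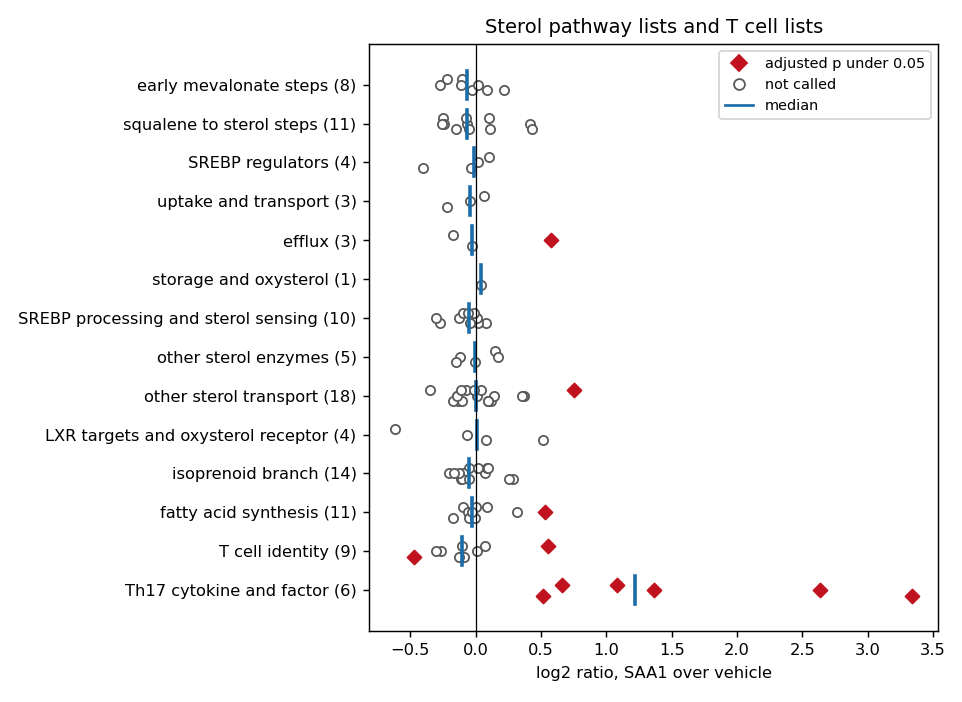
Log2 ratio of SAA1 over vehicle for each tested gene of the sterol lists, of the further pathway lists and of the T cell and Th17 marker lists, with the number tested in parentheses. Diamonds mark an adjusted p under 0.05 and blue bars the median. The sterol lists have medians between -0.07 and 0.04, while the 6 Th17 genes have a median of 1.22.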

How the data were processed

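The members, the gene lists and the tests were chosen with earlier results of these data known. The submitters' processing notes name TopHat2 and Cuffdiff, without versions, and the builds mm9 and mm10; run settings were not given in the sources used here. Per the file headers, the deposited table gives 1 FPKM value per group, a test statistic (a score), and the authors' deposited p-value and q-value. Of 23356 rows, 11481 were tested by the authors. Of 21458 rows matched by symbol to the GRCm38.p6 gene table, 99.0% overlapped its position, so coordinates are mm10, counted from 1.

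Log2 ratios were recomputed from FPKM, with no pseudocount, and standard errors as ratio over statistic (Python 3.11.15, pandas 2.3.3, scipy 1.17.1). The deposited p was smaller than the statistic's normal p: its normal score was 1.42 times the statistic (median of 10101 genes), so these standard errors and intervals are wide for the p beside them. A gene was called at an adjusted p under 0.05 by Cuffdiff as deposited, which was checked as the Benjamini-Hochberg adjustment over tested rows. The code for the adjustment and the intervals was run on simulated data. There the p was the statistic's normal p, unlike the deposited p, so that run does not test the intervals given here. Values per library were not used here, so no count test was run. Which spread the deposited p-values measure cannot be told from the values used here, and any spread between libraries may be technical.

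All members with a row were named. From the further lists, called genes and the tested gene of largest absolute log2 ratio at 1 FPKM or more were named. From the marker lists, Cd3e, Cd4, Il17a and the highest marker of other cell types were named; some genes that the rule names are left out. Thy1, C1qa, C1qb, Nr1h3, Acly, Cyp27a1, Cyp7b1, Cyp46a1, Hsd3b7, Lpcat3, Abca7 and the rows sharing a locus were chosen after their values were seen. Alternatives covered the threshold, the adjustment, shared loci, centring and the pseudocount. Some genes of the pathway were not analysed here.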

Additional observations from a re-analysis of the deposited data

How the results depend on the processing

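The call of Abcg1 held at an adjusted p of 0.01, with the adjustment limited to genes of at least 1 FPKM (adjusted p 0.0046) and without rows that share a locus. At a threshold of 0.1 there were 3 members, with Insig1 and Nsdhl, beside 8.81% of all tested genes. With the normal p of the deposited statistic 0 of the members were called (2 at an unadjusted p under 0.05). That p was larger than the deposited p, and the reason for the gap was not tested. The 2 further pathway genes called became 0 at a threshold of 0.01, 0 with the normal p (3 at an unadjusted p under 0.05) and 1, Soat2, without rows that share a locus. The members' median log2 ratio of -0.04 ranged from -0.05, without members that share a locus (an alternative chosen after seeing the data), to -0.02, as the mean or after centring. The median standard error of the members was 0.21 from the statistic and 0.15 from the deposited p, also added after seeing the data. No paired analysis was possible because each group has a single value per gene, and leaving out replicates and the replicate block were not run for the same reason.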
